A study of Mus musculus with 6 samples.

Results

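Expression of 10 genes that mark the somatic cells of the ovarian follicle was followed in mouse ooplasts and blastocysts. The genes were the cumulus matrix genes Has2, Tnfaip6 and Ptx3, the steroidogenic enzyme genes Cyp19a1 and Cyp11a1, the hormone subunit genes Inhba, Inhbb and Amh, and the receptor genes Amhr2 and Fshr. They were chosen by name, and every non-control probe that the array files assign to one of these symbols was read. All 10 genes were present, with 16 probes out of 41174, while the arrays as a whole carried 27597 gene names.

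Granulosa cells line the follicle and surround the growing oocyte, and those that stay attached to the oocyte are called cumulus cells. Before ovulation cumulus cells build a matrix of hyaluronan, which is made by hyaluronan synthase and cross-linked by proteins that include the products of Tnfaip6 and Ptx3. Granulosa cells also turn androgens into oestrogens with aromatase, secrete activins, inhibins and anti-Müllerian hormone, and respond to follicle-stimulating hormone.

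An ooplast is an oocyte without its chromosomes, and a blastocyst is the later embryo, with trophectoderm outside and an inner cell mass within. All samples were of the B6C3 F1 strain and were labelled either young or climacteric, a word for the years of reproductive decline, with no age in days or months. Ooplasts were measured on 2 arrays, 1 per age label, and blastocysts on 4 arrays, 2 per age label. The title of the series concerns the reprogramming of somatic nuclei by oocytes, and how the blastocysts were made is not stated in the labels, nor how many oocytes or embryos were pooled or whether cumulus cells were removed. RNA was column-purified with no DNase step, then amplified and labelled with the dye Cy3, and each sample was hybridised to its own Agilent array. The ooplast arrays and the first blastocyst replicates shared slide 1, and the blastocyst replicates numbered 2 shared slide 2.

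Each level given here is the log2 of the processed signal minus the log2 of that array's 75th percentile, so 0 is the 75th percentile of an array. That percentile was 235 to 238 signal units on the ooplast arrays and 721 to 1111 on the blastocyst arrays, and 42.2% to 57.3% of spots were well above background. Differences are taken for one probe between arrays, and levels of different probes are not ranked against each other. The labelled material carried its own markers. Of the oocyte genes, 8 of 8 had a probe well above background on both ooplast arrays, and 5 of 5 trophectoderm and 3 of 3 inner cell mass genes had one on all 4 blastocyst arrays. Detection was not confined to 1 stage. On the blastocyst arrays 4 to 5 of the 8 oocyte genes had such a probe. On the young and climacteric ooplast arrays 4 and 3 of the 5 trophectoderm genes did, and 1 of the 3 inner cell mass genes on each. Because these were bulk samples, fewer cells of a type and less RNA per cell cannot be told apart.

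Of the 16 marker probes, 5 were well above background on all 6 arrays, 7 on some of them and 4 on none. A probe well above background on both ooplast arrays was found for 6 of the 10 genes, and one on all 4 blastocyst arrays for 5 of the 10, with the clone probe named Ptx3 counted in both. In the fit of stage over 20983 probes, with age as a term, 15475 probes passed an adjusted p of 0.05 (limma, two-sided, Benjamini-Hochberg), which is 73.8%. The share higher in blastocysts was 35.6% and the share lower was 38.2%. Entry to this fit needed a signal well above background on all ooplast or on all blastocyst arrays, which 8 of the 16 marker probes had, and 7 of these passed, 2 higher and 5 lower. Ooplast and blastocyst levels did not overlap for 8 of the 8, beside 79.1% of all probes tested. Since most probes on the array passed, the count of 7 of 8 does not set these genes apart. The median difference of the 8 probes was -1.58 on the log2 scale, beside -0.22 for all probes tested. The 8 hold the clone probe named Ptx3 and both Inhbb probes. Tnfaip6 and Inhba entered through the ooplast arrays alone and Amhr2 through the blastocyst arrays alone. The median depends on these choices, and its distance from that of all probes was not tested.

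**Figure D1:**
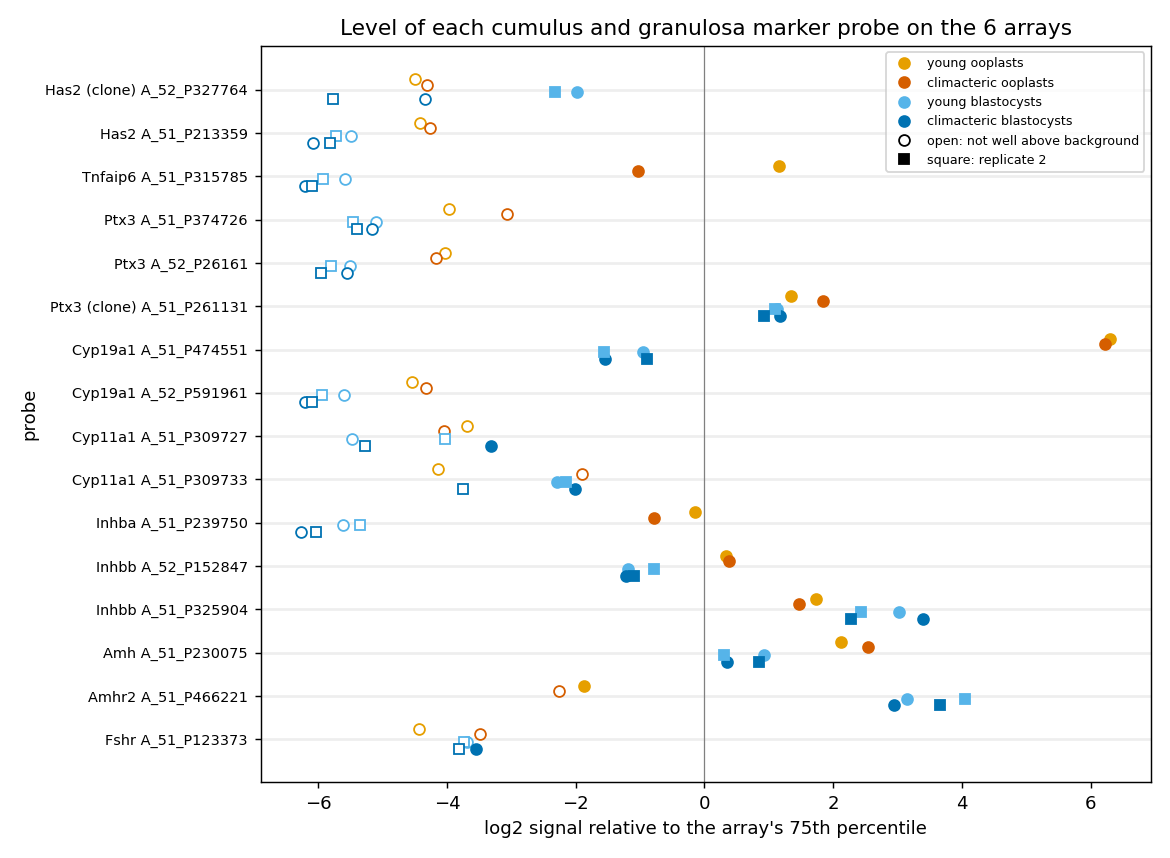
Level of each of the 16 marker probes on each array, as log2 signal relative to the array's 75th percentile, with ooplasts in orange, blastocysts in blue, replicate 2 as squares and open symbols for spots not well above background. Cyp19a1 A_51_P474551 lies at 6.22 and 6.30 on the ooplast arrays and at -0.89 or below on the blastocyst arrays, while Amhr2 lies at 2.94 or above on the blastocyst arrays only.

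Upstream sequence is shown for Tnfaip6 and Inhba, the genes measured only in ooplasts, and for Amhr2, which had the largest rise in blastocysts among the marker probes. The RefSeq promoter table (GRCm38.p6) held 11 windows for 8 of the 10 genes, and the 250 bases before the annotated start are printed 5′ to 3′ in the direction of the gene. Capitals mark AGGTCA, the core bound by NR5A nuclear receptors, and TGANTCA, the AP-1 motif. Both were searched on both strands together with the E-box CACGTG, and no matches overlapped.
Tnfaip6, chr2:52037863-52038112, plus strand: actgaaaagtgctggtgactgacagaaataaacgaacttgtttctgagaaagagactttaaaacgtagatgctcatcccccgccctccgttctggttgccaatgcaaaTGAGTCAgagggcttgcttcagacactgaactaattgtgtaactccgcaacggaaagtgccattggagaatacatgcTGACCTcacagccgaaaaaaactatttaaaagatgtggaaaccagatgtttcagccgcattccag
Inhba, chr13:16011601-16011850, plus strand: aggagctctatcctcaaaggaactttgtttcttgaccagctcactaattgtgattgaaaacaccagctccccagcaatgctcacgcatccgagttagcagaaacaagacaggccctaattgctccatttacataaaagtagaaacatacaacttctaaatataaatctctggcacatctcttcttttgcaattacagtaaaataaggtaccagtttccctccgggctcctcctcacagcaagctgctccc
Amhr2, chr15:102445117-102445366, plus strand: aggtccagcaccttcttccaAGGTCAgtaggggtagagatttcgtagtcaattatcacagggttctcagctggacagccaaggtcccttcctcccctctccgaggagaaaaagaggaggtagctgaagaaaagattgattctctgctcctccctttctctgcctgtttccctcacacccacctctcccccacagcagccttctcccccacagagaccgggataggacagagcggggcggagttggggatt

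The Tnfaip6 window held 1 AP-1 match, which began 142 bases before the start, and 1 reverse-strand AGGTCA match 65 bases before it. The Amhr2 window held 1 AGGTCA match 230 bases before the start, and none of the 3 motifs was found in the Inhba window. Over the 11 windows, AGGTCA was found in 4, TGANTCA in 1 and CACGTG in 1. Of all 32851 windows of the same length in the table, 14% held AGGTCA, 6.75% TGANTCA and 6.02% CACGTG. These matches are a description of letters, and binding was not measured.

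Among the genes of the cumulus matrix, Tnfaip6 was measured in ooplasts only. Tnfaip6 encodes a hyaluronan-binding protein that transfers heavy chains onto hyaluronan during cumulus expansion, and its probe A_51_P315785 lies at chr2:51878493-51878552 on the plus strand of mm8, the build of every probe position given here. The level was 1.15 in young and -1.03 in climacteric ooplasts, both well above background. The blastocyst levels were -5.58 and -5.93 in young and -6.21 and -6.10 in climacteric replicates 1 and 2, and none was well above background. The ooplast and blastocyst arrays did not overlap, with means of 0.06 ± 1.54 (SD, n = 2) and -5.95 ± 0.27 (SD, n = 4). Tnfaip6 was at least 13.4-fold lower in blastocysts (limma adjusted p = 4.69e-05). This bound sets each dim array at the lowest signal well above background and, like the other bounds here, holds for the deposited processed signal. The p printed beside this and every other bound tests the measured difference, and the bound itself was not tested. Probes with a bound entered their fit only through the bright group. The same held for probes well above background on only some arrays of the dim group. The measured Tnfaip6 difference was -6.02 ± 0.44 (SE), and -4.05 before scaling. After normexp background correction with quantile normalization, the normexp setting, it was -2.87 (adjusted p = 0.00111), which is less than the 13.4-fold bound. It was -5.12 without the young and -6.91 without the climacteric ooplast array.

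Ptx3, which encodes the pentraxin that stabilises the cumulus matrix, was not well above background on any of the 6 arrays with either probe to its mRNA. Probe A_51_P374726 (chr3:66313252-66313311) read between 15.0 and 29.8 signal units, and probe A_52_P26161 (chr3:66313207-66313266), which overlaps it, read between 13.2 and 22.6. The files give the same symbol to another probe, A_51_P261131, designed on a clone of unclassifiable product that is placed on the opposite strand (chr3:66308217-66308241). That probe was well above background on all 6 arrays, at 1.34 and 1.84 in young and climacteric ooplasts and between 0.92 and 1.17 in blastocysts. Its stage difference was -0.51 ± 0.27 (SE, adjusted p = 0.130), and with the opposite strand it is not read here as Ptx3 mRNA.

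Has2, the gene of the hyaluronan synthase of cumulus cells, was likewise not well above background on any array with its mRNA probe A_51_P213359 (chr15:56495884-56495943), at 11.0 to 21.0 signal units. A second probe, A_52_P327764, was designed on a clone described as hyaluronan synthase 2 and lies 26104 bases from the first (chr15:56522048-56522107). It read -4.49 and -4.30 in young and climacteric ooplasts, -1.97 and -2.33 in young blastocysts, and -4.33 and -5.77 in climacteric blastocysts. Only the 2 young blastocyst arrays were well above background, and they did not overlap the climacteric ones. The clone probe did not enter the stage fit because neither stage had it well above background on every array.

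Of the steroidogenic enzymes, Cyp19a1 had the largest fall from ooplast to blastocyst among the marker probes. Cyp19a1 encodes aromatase, and probe A_51_P474551 lies at chr9:53964108-53964167 on the minus strand. Its deposited signal was 18549 units in young and 17751 in climacteric ooplasts, and between 364 and 460 in the 4 blastocyst arrays. In levels this was 6.30 and 6.22 against -0.95, -1.55, -1.55 and -0.89 in young replicate 1, climacteric replicate 1, young replicate 2 and climacteric replicate 2. All 6 arrays were well above background and the stages did not overlap. The difference was -7.50 ± 0.33 (SE), or 180-fold lower in blastocysts (limma adjusted p = 1.17e-05). Before scaling the log2 difference was -5.53. The probe was thus still measured in every blastocyst sample.

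The second Cyp19a1 probe, A_52_P591961, was not well above background on any array, at 10.1 to 18.1 signal units. It spans 598 bases of mm8 (chr9:53970915-53971512) and lies 6747 bases upstream of the first along the gene. The 2 probes therefore disagreed, and the large Cyp19a1 values rest on the probe nearer the 3′ end. RefSeq lists 3 start windows for this gene, and which start was used was not measured.

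Cyp11a1, the gene of the side-chain cleavage enzyme that makes pregnenolone from cholesterol, was near background in ooplasts. Probe A_51_P309733 (chr9:57824404-57824874) read -4.14 and -1.90 in young and climacteric ooplasts, neither well above background. It was well above background in 3 of 4 blastocyst arrays, at -2.28 and -2.15 in young replicates and -2.01 in climacteric replicate 1, and was at -3.74 in climacteric replicate 2. Probe A_51_P309727 (chr9:57823695-57824232), 171 bases away, was well above background on 1 array only, climacteric blastocyst replicate 1, at -3.32. Neither Cyp11a1 probe met the condition for the stage fit.

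The hormone subunits went in different directions. Inhba encodes the beta-A subunit of activin A and inhibin A, and its probe A_51_P239750 lies at chr13:15817688-15817747. It read -0.15 in young and -0.78 in climacteric ooplasts. The blastocyst levels were -5.62 and -5.35 in young and -6.27 and -6.04 in climacteric replicates 1 and 2, none well above background. The stages did not overlap, with means of -0.46 ± 0.45 (SD, n = 2) and -5.82 ± 0.41 (SD, n = 4). Inhba was at least 9.36-fold lower in blastocysts (limma adjusted p = 1.40e-05). Its measured difference was -5.36 ± 0.26 (SE), and -3.39 before scaling. Under normexp it was -2.37 (adjusted p = 9.49e-05), which is less than that bound.

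Inhbb encodes the beta-B subunit of activin B and inhibin B, and its 2 probes, 2274 bases apart on chromosome 1, disagreed. Probe A_51_P325904 (chr1:121243052-121243111, nearer the 3′ end on the minus strand) read 1.73 and 1.46 in young and climacteric ooplasts. It read 3.03 and 2.42 in young and 3.40 and 2.27 in climacteric blastocyst replicates 1 and 2. All blastocyst values lay above all ooplast values, and the difference was 1.19 ± 0.40 (SE, adjusted p = 0.0337). That call was lost under all 4 other scalings (0.82 to 0.98, adjusted p from 0.0736 to 0.0949). It was also lost without the young ooplast (1.37, adjusted p = 0.0929), the climacteric ooplast (1.00, adjusted p = 0.200), young blastocyst replicate 1 (1.08, adjusted p = 0.0774) or climacteric blastocyst replicate 1 (0.92, adjusted p = 0.0533).

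Probe A_52_P152847 (chr1:121245386-121245445) went the other way. It read 0.34 and 0.38 in young and climacteric ooplasts, -1.19 and -0.78 in young and -1.21 and -1.09 in climacteric blastocyst replicates 1 and 2. The stages did not overlap, and the difference was -1.43 ± 0.27 (SE, adjusted p = 0.00298), with a range of -1.65 to -1.21 over the 4 other scalings. For Inhbb as a gene no stage direction is given.

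Amh encodes anti-Müllerian hormone, and its probe A_51_P230075 lies at chr10:80210592-80210651. It read 2.12 and 2.54 in young and climacteric ooplasts, 0.92 and 0.30 in young and 0.35 and 0.85 in climacteric blastocyst replicates 1 and 2. The stages did not overlap, and Amh was 3.30-fold lower in blastocysts (log2 difference -1.72 ± 0.32 SE, limma adjusted p = 0.00296). This fall is relative to the rest of the array. The deposited signal itself was 1025 and 1382 units in ooplasts and 1360 to 1541 units in blastocysts, a difference of 0.24 on the log2 scale before scaling. For Inhbb A_52_P152847 the difference before scaling was 0.54, also upward, while the 4 other scalings gave -1.96 to -1.78 for Amh. Scaling moved the median of all tested probes between -0.44 and -0.09.

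**Figure D2:**
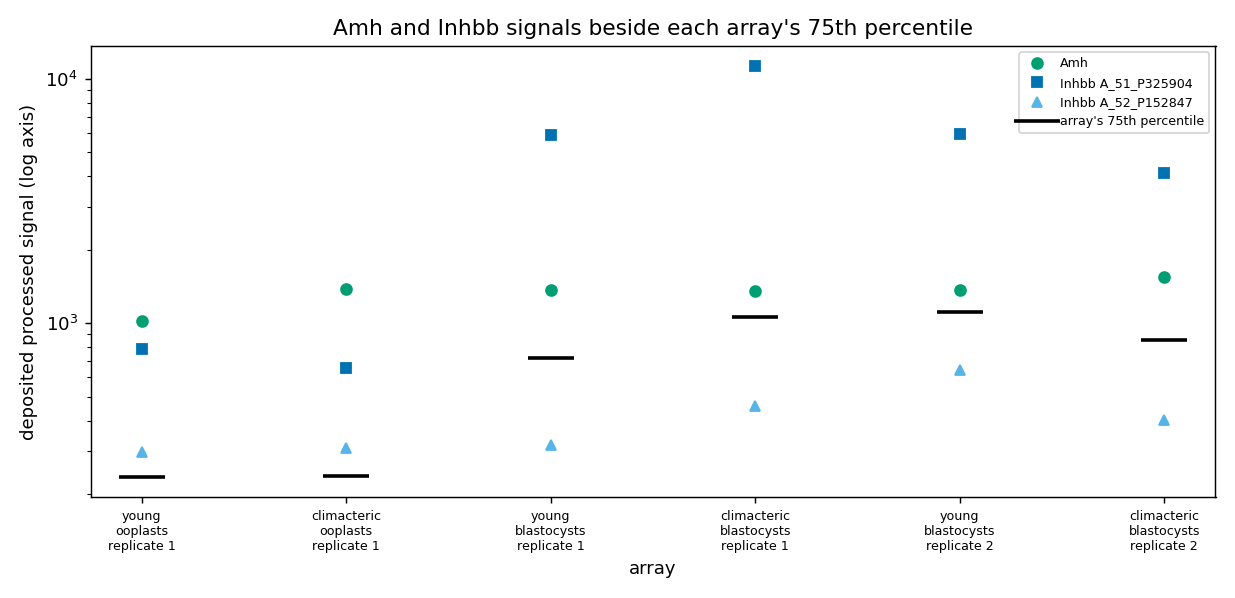
Deposited processed signal of the Amh and both Inhbb probes on each array, on a log axis, with black bars at the 75th percentile of that array. The Amh signal stays between 1025 and 1541 units while the 75th percentile goes from 235 in ooplasts to as much as 1111 in blastocysts.

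Amhr2, the receptor through which anti-Müllerian hormone signals, had the opposite pattern to Cyp19a1. Its probe A_51_P466221 (chr15:102282533-102282592) read -1.87 in young ooplasts, where it was well above background, and -2.26 in climacteric ooplasts, where it was not. It read 3.15 and 4.05 in young and 2.94 and 3.66 in climacteric blastocyst replicates 1 and 2. In signal units this was 64.3 and 49.7 in ooplasts against 6415 to 18361 in blastocysts, with no overlap. Amhr2 was 45.7-fold higher in blastocysts (log2 difference 5.52 ± 0.37 SE, limma adjusted p = 3.45e-05), with 1 of 2 ooplast arrays measured above background. Before scaling the log2 difference was 7.48. The probe entered the fit through the blastocyst arrays alone.

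Fshr, the receptor of follicle-stimulating hormone, was well above background on 1 of 6 arrays. Its probe A_51_P123373 (chr17:88893659-88893718) read -4.43 and -3.49 in young and climacteric ooplasts. It read -3.69 and -3.73 in young and -3.54 and -3.82 in climacteric blastocysts, and only climacteric replicate 1 was well above background. Fshr did not meet the condition for the stage fit.

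**Figure D3:**
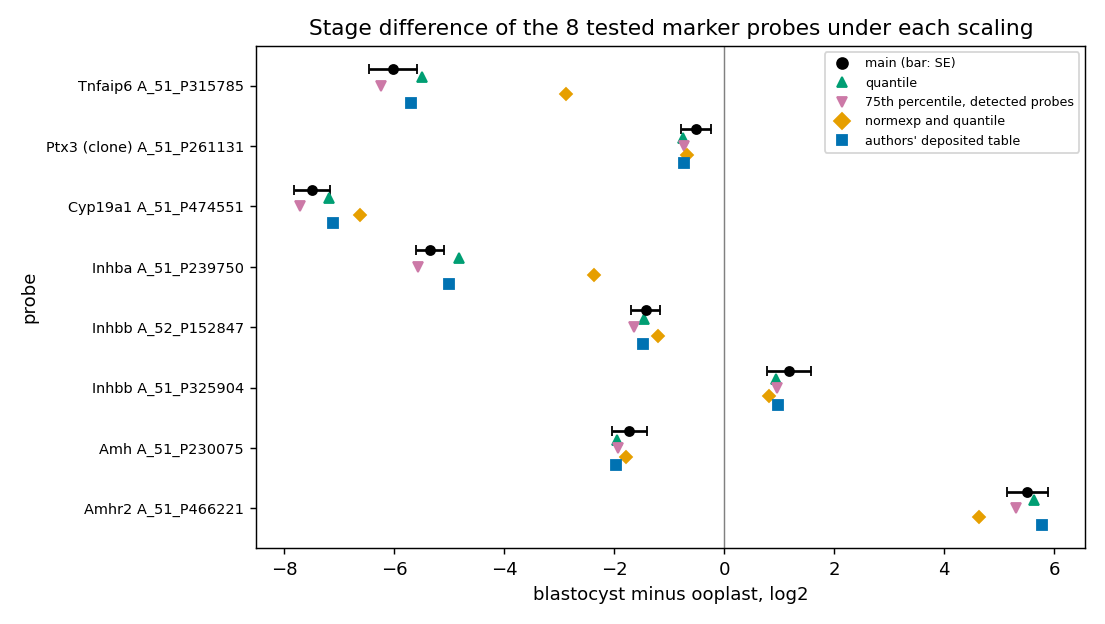
Blastocyst minus ooplast difference (log2) of the 8 tested marker probes under the main scaling (black, with the SE) and 4 other scalings. The sign of each probe is the same under all 5, and the 2 Inhbb probes lie on opposite sides of 0.

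The further genes of these pathways were then set beside the markers, with 1 probe per gene. In the list for steroid synthesis and gonadotropin response, 8 of 11 genes were tested, 1 was higher and 5 lower in blastocysts, and the median was -2.23. Over all probes 73.8% passed, so the count does not set the list apart. Nr5a1, the nuclear receptor that drives steroidogenic genes, fell by 7.13 ± 1.25 (SE, adjusted p = 0.00224), with 2 of 4 blastocyst arrays well above background. It fell by 4.38 without the young ooplast array. Its other probe gave -0.33 ± 0.28 (adjusted p = 0.310). Hsd3b1, a 3-beta-hydroxysteroid dehydrogenase gene, was 28.2-fold lower (adjusted p = 0.000285). Hsd17b1, whose product makes oestradiol from oestrone, was 6.78-fold lower (adjusted p = 0.000484). Akr1c18, the gene of the enzyme that inactivates progesterone, was at least 13.5-fold lower (adjusted p = 4.59e-05). Under normexp its log2 difference was -2.43, which is less than that bound. Star, Lhcgr and Sult1e1 were not well above background on any array.

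In the list for cumulus expansion and ovulation, 5 of 15 genes were tested, 1 was higher and 3 lower, beside 73.8% of all probes passing, and the median was -1.66. Ptgs2, the cyclooxygenase of the ovulatory response, was at least 4.11-fold lower in blastocysts (adjusted p = 2.56e-05). That bound too is relative to the rest of the array. Under normexp its log2 difference was -1.43, which is less than that bound. Ereg, which encodes the growth factor epiregulin, was 3.16-fold lower (adjusted p = 0.00301). Its other probe fell by only 0.82 ± 0.27 (SE, adjusted p = 0.0307) on the log2 scale, and both falls are relative to the rest of the array. Egfr, the receptor for such growth factors, was 30.2-fold lower with its brightest probe (adjusted p = 2.80e-05), but 2 other tested probes gave 1.67 ± 1.21 and -0.19 ± 0.34. Il6, a cytokine gene, was at least 61.0-fold higher in blastocysts (adjusted p = 6.19e-05), with a log2 difference of 5.64 under normexp, which is less than that bound. The 7 genes Ptger2, Areg, Btc, Vcan, Hapln1, Adamts1 and Pgr were not well above background on any array.

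In the list for activin, inhibin and anti-Müllerian hormone signalling, 12 of 15 genes were tested, 2 were higher and 7 lower, again beside 73.8% of all probes, and the median was -1.02. Inha encodes the inhibin alpha subunit that pairs with the products of Inhba and Inhbb. Its brighter probe read 8.44 in young and 2.80 in climacteric ooplasts, and -1.53 and 1.44 in young and -2.55 and -2.09 in climacteric blastocyst replicates 1 and 2. Inha fell by 6.80 ± 1.02 (SE, adjusted p = 0.00111). It fell by 5.12 without the young ooplast array, and its other probe was at least 9.14-fold lower in blastocysts (adjusted p = 2.18e-05). Smad3, a signal transducer of activins, was 35.4-fold lower (adjusted p = 9.00e-05), with 3 of 4 blastocyst arrays well above background. The receptor genes Acvr2a and Bmpr1a rose, Acvr2a at least 3.15-fold (adjusted p = 5.23e-05) and Bmpr1a 16.3-fold (adjusted p = 7.08e-05).

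In the list for granulosa identity and growth, 7 of 10 genes were tested, 2 were higher and 3 lower, beside the same 73.8%, and the median was -0.70. Foxo1, a transcription factor of growing granulosa cells, was 41.2-fold lower in blastocysts (adjusted p = 2.57e-05). Its other probe fell by 2.09 ± 0.25 (SE, adjusted p = 0.000388) on the log2 scale, a fall relative to the rest of the array. Esr2, the oestrogen receptor beta gene, was lower (adjusted p = 0.00561), a call lost without the climacteric ooplast array (adjusted p = 0.0666). Only 1 of 4 blastocyst arrays was well above background for it, so no fold is given, and the log2 difference of -3.18 became -1.22 under normexp. Gja1, a gap junction connexin gene, was at least 31.9-fold higher (adjusted p = 2.42e-05), and Npr2, the natriuretic peptide receptor of cumulus cells, at least 31.3-fold higher (adjusted p = 0.000129). The other Npr2 probe gave 0.61 ± 0.26 (SE, adjusted p = 0.0750). Foxl2, a defining transcription factor of granulosa cells, had a difference of -0.42 ± 0.30 (adjusted p = 0.238). Wt1, Kitl and Pappa were not well above background on any array.

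Age could be compared in ooplasts only as 1 array against 1, with no replicate check and no test. Of the 7 marker probes well above background on both ooplast arrays, 1 differed by at least 2-fold, beside 17.3% of the 15518 probes measured on both, where 9.92% of the 15518 were lower in the climacteric array. Between replicate blastocyst arrays of one age group that share was 11.8% and 12.1%. The exception was Tnfaip6, at 524 signal units in young and 117 in climacteric ooplasts, or 4.54-fold lower in climacteric after scaling. Inhba differed by -0.63, Amh by 0.42, Cyp19a1 by -0.08 and the 2 Inhbb probes by -0.27 and 0.04 (log2, climacteric minus young). The sign for Cyp19a1 turned under the 4 other scalings, which gave 0.05 to 0.38. The Ptx3-labelled clone probe differed by 0.50. For Tnfaip6 the difference lay between -2.47 and -2.0 over the 4 other scalings.

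Larger differences lay among the pathway genes, but not with every probe. Inha was 50.1-fold lower in the climacteric ooplast array with probe A_51_P434554, while probe A_52_P401484 read -0.58 in young and -0.41 in climacteric ooplasts. Nr5a1 was 35.8-fold lower with probe A_51_P315964, whose target is described as the embryonal LTR binding protein mRNA, while probe A_52_P616265 read -1.41 and -0.32. Scarb1, the lipoprotein receptor that supplies cholesterol, was 3.88-fold higher in climacteric ooplasts, and Acvr1b, an activin receptor gene, was 2.02-fold higher. Over the 4 pathway lists, the genes at least 2-fold apart were 2 of 8 for steroid synthesis, 0 of 4 for cumulus expansion, 2 of 11 for activin and inhibin signalling and 0 of 4 for granulosa identity. Beside the 17.3% of all probes measured on both ooplast arrays, these counts do not set the lists apart.

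**Figure D4:**
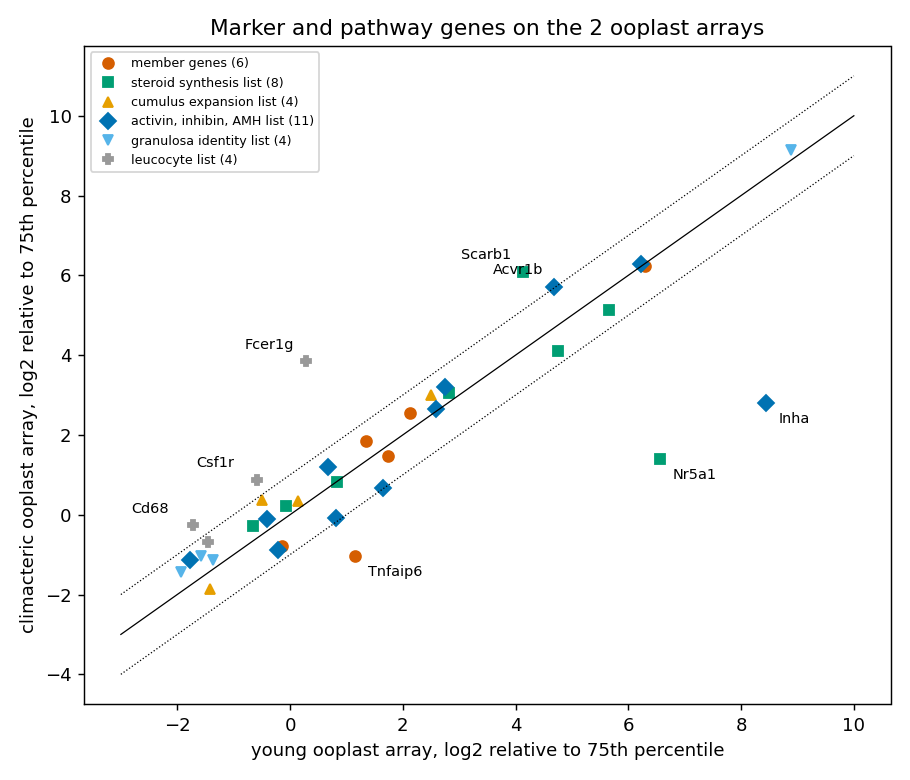
Level on the young against the climacteric ooplast array for genes of the marker, pathway and leucocyte lists measured on both, with the line of equality and dotted lines at 2-fold. Tnfaip6, Inha and Nr5a1 lie below the lower dotted line and Fcer1g, Csf1r, Cd68, Scarb1 and Acvr1b above the upper one.

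Markers of other cell types were read on the same arrays. Well above background were 7 of the 10 follicle markers in young ooplasts, 6 in climacteric ooplasts and 5 to 7 on the blastocyst arrays. Their summed level, in units of the array's 75th percentile and with the brightest probe of each gene, was 92.5 in young and 88.5 in climacteric ooplasts and 21.9 to 26.1 in blastocysts. The Cyp19a1 probe alone gave 85.1% and 84.4% of the ooplast sums, and without it they were 13.7 and 13.8, against 21.4 to 25.8 in blastocysts. In blastocysts Amhr2 gave 34.1% to 63.2% of the sum and Inhbb probe A_51_P325904 gave 20.6% to 46.9%. The sums of both stages thus rest on few probes and are not a trait of the 10 markers as a set. The sums and the counts hold the Ptx3-labelled clone probe too, which stands for Ptx3 on every array. The Has2 clone probe is in the sums and in the counts of the young blastocyst arrays. Of 9 leucocyte and macrophage genes, 4 were well above background in young and 7 in climacteric ooplasts, with summed levels of 2.95 and 36.3. On the blastocyst arrays 4 to 6 of these were, with summed levels of 2.73 to 3.02 in young and 2.64 to 38.0 in climacteric replicates. One probe of the lysozyme gene Lyz2, A_52_P238027, gave 15.4 of the 36.3 units in climacteric ooplasts and 33.5 of the 38.0 in climacteric blastocyst replicate 1, and was not well above background on the other 4 arrays. The other Lyz2 probe was not well above background on any array. Fcer1g, which encodes an Fc receptor chain of myeloid cells, was 11.8-fold higher in climacteric ooplasts, opposite in direction to Tnfaip6.

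Theca genes, markers of the outer steroidogenic layer, were well above background for 2 of 4 in both ooplast arrays and 3 of 4 in each blastocyst array, with summed levels of 2.76 and 2.96 in ooplasts and 2.62 to 4.15 in blastocysts. Endothelial genes were so for 2 and 3 of 4 in ooplasts and 2 to 3 of 4 in blastocysts, red blood cell genes for 2 of 3 in ooplasts and 3 of 3 in blastocysts, and stromal genes for 2 of 4 in ooplasts and 2 to 3 of 4 in blastocysts. Oviduct genes were so for 0 and 1 of 3 in ooplasts and 2 to 3 of 3 in blastocysts. The part of any of these cells in the levels of the 10 follicle markers was not tested.

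**Figure D5:**
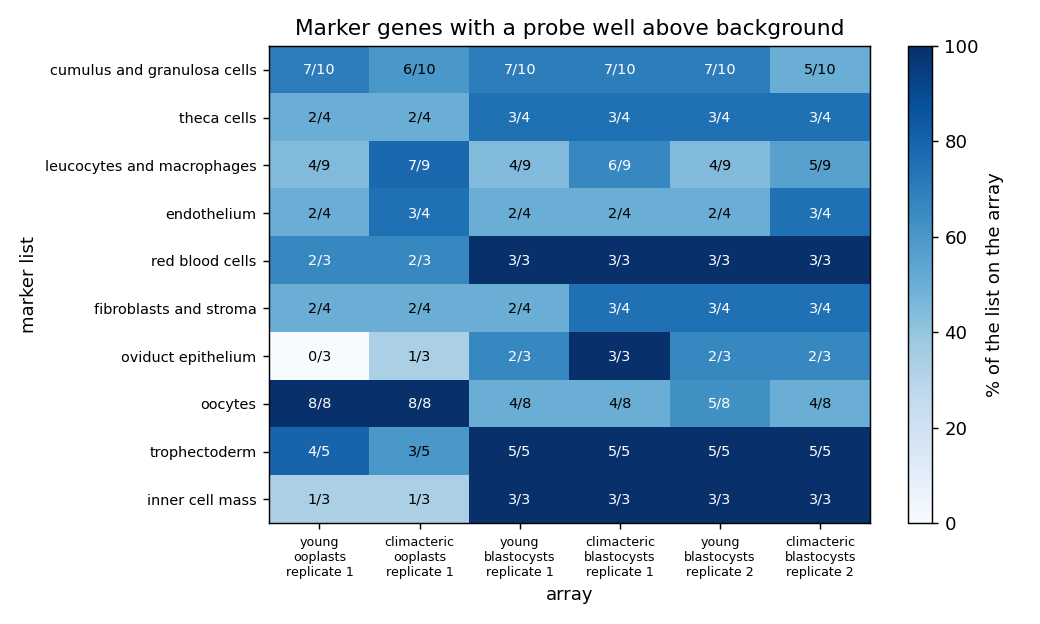
Number of genes of each marker list with a probe well above background on each array, out of the genes of that list on the array, shaded by percent. The 10 follicle markers show 5 to 7 genes on every array, with Ptx3 counted through the clone probe. The oocyte list is complete at 8 of 8 only in ooplasts and the trophectoderm list at 5 of 5 only in blastocysts.

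In blastocysts, age was compared over 4 arrays and 21649 probes, and 0 probes passed (limma, smallest adjusted p = 0.279), which is 0%. At an unadjusted p under 0.05 there were 1213 probes. Of the 8 marker probes tested, 0 passed after adjustment and 1 had an unadjusted p under 0.05, the Has2 clone probe. It was at least 3.30-fold lower in climacteric blastocysts (log2 difference -2.90 ± 0.54 SE, limma adjusted p = 0.464), lower on 2 of 2 climacteric arrays. The difference was -1.0 under normexp (adjusted p = 0.999), less than that bound, -3.62 without climacteric replicate 1 and -2.18 without climacteric replicate 2 (adjusted p = 0.289 and 0.458). It was also the only marker probe of the 8 whose age groups did not overlap, beside 30.7% of all probes tested. The clone probe entered this fit only because its young blastocyst arrays, and neither climacteric one, were well above background. Its separation and unadjusted p are therefore not separate support for an age difference. The other 7 differed by -0.66 ± 0.61 (SE, Cyp11a1 A_51_P309733) to 0.11 ± 0.49 (SE, Inhbb A_51_P325904), with adjusted p = 1.00 for each in limma. Tnfaip6 and Inhba were not well above background in blastocysts and were not tested for age there.

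Whether the age difference itself differed between stages was tested with an interaction term, in which each lone ooplast array is assumed to vary like the blastocyst arrays. Of 20983 probes 141 passed, or 0.672%, and 0 of the 8 marker probes did. Tnfaip6 came closest, with an interaction of 1.79 ± 0.53 (SE, unadjusted p = 0.0181, limma adjusted p = 0.438). None of the 4 blastocyst arrays was well above background for it, so this value compares a difference between measured ooplast levels with one between unmeasured levels. For Inha the interaction was 3.37 ± 1.66 (SE, adjusted p = 0.75).

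The genes whose pattern over the 6 arrays lay closest to each of 6 markers were listed after centring each probe on its own mean, by the root mean square difference on the log2 scale. For Tnfaip6 these were Chrdl1 (0.111), Oog2 (0.218) and Gykl1 (0.263), and for Inhba Col19a1 (0.0882), Zfp449 (0.151) and Kif17 (0.190). Chrdl1 encodes an antagonist of bone morphogenetic proteins, and Oog2 belongs to an oocyte gene family. For Cyp19a1 they were Kalrn (0.216), Klhl8 (0.223) and Cdh20 (0.224), and for Amhr2 As3mt (0.139), Kank3 (0.142) and Vgll3 (0.171). For Amh they were Nfic, Fam104a and Hexim2 (0.0656 to 0.0847), and for Inhbb A_51_P325904 Hmgn5, Grwd1 and Lilra6 (0.104 to 0.134). This is a description over 6 arrays that share 2 stages, and no test was made of it.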

How the data were processed

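Spot intensity was read with Agilent Feature Extraction 9.5 (per the submitters' processing notes) on the mm8 design. The deposited processed signal is an intensity that is background-subtracted and not scaled between arrays, per the file headers. Values in the authors' deposited table are log2, with a median of 6.25 in each of the 6 columns. These columns had a rank correlation of 1 with the scanner signals of their own array, so direction and scale are known, and the table served as an alternative. Control spots and spots flagged as outliers were left out, spots of a probe were averaged, and each array's 75th percentile was subtracted on the log2 scale. Gene names came from the files, updated through a RefSeq table, and the RefSeq promoter table (GRCm38.p6) gave sequences. An mm8 genome and the probe sequences were not used here, and exon positions are therefore left out.

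Fits took the probes that at least 1 compared group had well above background throughout. They were fitted in R 4.3.3 with lmFit and eBayes of limma 3.58.1 (two-sided, adjusted by Benjamini-Hochberg over all probes tested, threshold 0.05), and the code was tested on simulated data. Stage was fitted over 6 arrays with age as a term, and age over the 4 blastocyst arrays. The series calls its replicates biological but names no animals, so p-values measure only the spread between these samples, and the number of arrays limits the precision. "At least" folds compare, after scaling, the bright group with the higher of each dim array's signal and its lowest signal well above background. The named genes are all probes of the 10 markers, up to 4 genes per pathway list with the largest stage difference past the threshold, and the 3 nearest patterns per measured marker, of which those of the Ptx3-labelled clone probe are not reported here. Genes named as never above background, Foxl2, Scarb1, Acvr1b, the leucocyte genes Fcer1g, Csf1r, Cd68 and Lyz2, and the other probes of Inha, Nr5a1, Egfr, Ereg, Npr2 and Foxo1 were added after their values were seen. The markers and lists were chosen with earlier results of these data known.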

Additional observations from a re-analysis of the deposited data

How the results depend on the processing

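Alternatives were quantile normalization, a 75th percentile over probes detected on all arrays, normexp (offset 50) with quantile normalization, the authors' deposited table, other filters, 1 probe per gene, slide 1 only, a replicate block and each array left out. Without a filter 29232 probes and 11 marker probes passed for stage, and with the filter on every array 9781 and 4, where 2 genes each of the cumulus expansion and granulosa identity lists passed. Within slide 1, 5 genes of the activin list passed. Leaving out each array gave 13329 to 15215 probes, 6 to 7 marker probes, and 5 to 7, 4 to 4, 6 to 9 and 3 to 5 genes of the steroid, cumulus, activin and granulosa lists. List alternatives were added after seeing the data. With the replicate block, which is also the slide, 14295 probes and 7 marker probes passed for stage and 0 probes for age, and it changed no call of a marker probe. Replicate deviations of the 2 blastocyst groups correlated at 0.142, over too few pairs to pair the samples. The interaction count was 0 under quantile normalization and the authors' table, and 0 to 109 without 1 blastocyst array. The Ptx3-labelled clone probe passed for stage with the detected-probe percentile (-0.73, adjusted p = 0.0475) and with normexp (-0.67, adjusted p = 0.0353).

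No marker probe passed for age in blastocysts under any setting run. Signs turned for Amh at 0.0053 (quantile), 0.15 (detected-probe percentile) and 0.012 (authors' table), Cyp19a1 at -0.028 (quantile), -0.014 (normexp) and -0.028 (authors' table), and the Ptx3-labelled clone at 0.093 (detected-probe percentile). With 1 array left out the ranges were -0.31 to 0.30 for Amh, -0.30 to 0.36 for Cyp19a1, -0.74 to 0.15 for Amhr2, -1.53 to 0.21 for Cyp11a1, -3.62 to -2.18 for the Has2 clone, -0.45 to 0.67 and -0.37 to 0.039 for the Inhbb probes and -0.19 to 0.062 for the clone. The causes were not tested. Probes that no array of a group measured well above background give only bounds, and the single ooplast array per age gives no error.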
